A study of Mus musculus with 10 samples.

Results

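The genes of the unfolded protein response and of the integrated stress response were examined in lung eosinophils from mice with and without the receptor P2ry14. Members were the rows of the deposited count table whose gene symbol stood on a list of 40 genes covering stress sensors, endoplasmic reticulum (ER) chaperones, ER-associated degradation, the translocon, and Atf4 with its targets. All 40 were found among 35725 rows, and all 40 had enough reads to enter the test, which ran over 15586 genes. The data were RNA-seq read counts per gene from 5 P2ry14-null libraries and 5 wild-type (WT) libraries of strain C57BL/6J. All mice were male. Both groups had received 50 µg of ovalbumin (OVA) with 20 µg of Aspergillus oryzae protease by oropharyngeal instillation as sensitization, and later breathed an aerosol of 1% OVA, a model of allergic asthma. Eosinophils, the granulocytes that gather in allergic airways, were sorted from the lung by flow cytometry 16 h after that challenge. The labels give neither the allele behind the P2ry14-null strain nor the age of the mice, and leave unsaid whether libraries were separate mice, so p-values measure the spread between these libraries, which may be partly technical. P2ry14, a receptor that senses UDP-glucose, is a G protein-coupled receptor, and its loss was the only labelled difference between the groups.

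When unfolded proteins build up in the ER, sensors in its membrane respond. IRE1, encoded by Ern1, splices Xbp1 mRNA. PERK, encoded by Eif2ak3, slows translation by phosphorylating eIF2α. ATF6 is cleaved and releases a transcription factor. XBP1 and ATF6 switch on genes for chaperones and for the degradation of misfolded proteins. Phosphorylated eIF2α favours the production of ATF4, which switches on genes for amino acid supply and for the end of the response, and other stresses such as amino acid shortage reach ATF4 through other eIF2α kinases. In mice, Xbp1 is needed for eosinophils to form in the bone marrow. Counts per gene do not show the splicing of Xbp1 mRNA or how much ATF4 protein was made.

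The chaperone genes and the ATF4 targets differ in their promoters, and the stretches below show where. The ER stress response element (ERSE), bound by ATF6 with NF-Y, was searched as CCAAT, any 9 bases, then CCACG, on both strands, in the 250 bases before each RefSeq gene start (build GRCm38.p6). Of the 40 genes, 35 had a promoter in the RefSeq table, all but Atf6, Hyou1, Manf, Derl1 and Ppp1r15b. Each stretch is written 5′ to 3′ along the strand that carries the element, with CCAAT and CCACG in capitals. The first 8 lines belong to chaperones and the last 2 to degradation genes.

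Hspa5: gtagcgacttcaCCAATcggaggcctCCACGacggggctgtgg
Hsp90b1 (upstream): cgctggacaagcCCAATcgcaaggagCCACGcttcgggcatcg
Hsp90b1 (downstream): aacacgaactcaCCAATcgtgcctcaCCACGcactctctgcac
Dnajc3: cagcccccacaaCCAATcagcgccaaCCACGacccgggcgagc
Calr: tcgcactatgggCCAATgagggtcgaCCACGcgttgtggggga
Canx: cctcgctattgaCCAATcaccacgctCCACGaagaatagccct
Pdia6: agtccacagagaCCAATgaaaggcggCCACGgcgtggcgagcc
Creld2: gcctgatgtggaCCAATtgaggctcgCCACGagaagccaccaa
Syvn1: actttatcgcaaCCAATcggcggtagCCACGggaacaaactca
Derl3: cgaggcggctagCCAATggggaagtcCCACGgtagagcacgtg

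The Hspa5 stretch lay at chr2:34772013-34772055 on the plus strand, 77 to 35 bases before the gene's start. The Hsp90b1 stretches lay at chr10:86705626-86705668, minus strand, and chr10:86705521-86705563, plus strand, on opposite strands. The other chaperone stretches lay at chr14:118937815-118937857 (Dnajc3, plus), chr8:84847063-84847105 (Calr, plus), chr11:50325788-50325830 (Canx, minus), chr12:17266479-17266521 (Pdia6, plus) and chr15:88819508-88819550 (Creld2, minus). The degradation genes had theirs at chr19:6046520-6046562 (Syvn1, plus) and chr10:75893230-75893272 (Derl3, minus). That of Derl3 precedes its RefSeq start but lies inside the gene by the deposited coordinates (chr10:75893072-75895941, plus strand). In all, 7 of 11 chaperone promoters (63.6%) and 2 of 6 promoters of ER-associated degradation genes (33.3%) held an ERSE. None of the 12 ATF4 targets held one, and 35 of all 27025 genes with a RefSeq promoter did (0.13%). The CCACG part alone stood in 9 of the 11 chaperone promoters (81.8%), in 6 of the 12 ATF4 target promoters (50%) and in 31% of all genes' promoters. Another element, the UPRE (TGACGTGG), was in 0 of the 35 promoters and in 0.603% of all. These are matches of letters, not measured binding. The lists were drawn up by regulator, so a difference in the regulators' elements is partly built in and is no result about P2ry14.

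The element bound by ATF4 with C/EBP proteins was searched as TGATGNAAT, both strands, and matched 1 of 12 ATF4 target promoters, against 0.91% of all genes. With the last base left open (TGATGNAAN, a form chosen after the first count was seen), 4 of the 12 matched (33.3%), against 0 of 11 chaperone promoters, 1 of 6 degradation gene promoters (Herpud1) and 3.89% of all genes. Those of Asns, Chac1 and Vldlr are shown with the 9 bases of the element in capitals, since Asns has the largest difference below in size and the other two are among the genes with the fewest reads.

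Asns: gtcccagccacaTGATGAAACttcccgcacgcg
Chac1: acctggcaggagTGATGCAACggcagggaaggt
Vldlr: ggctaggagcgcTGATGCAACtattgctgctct

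These 3 were read on the minus strand, at chr6:7693212-7693244 for Asns, chr2:119351036-119351068 for Chac1 and chr19:27216807-27216839 for Vldlr. That of Vldlr precedes a RefSeq start but lies inside the gene by the deposited coordinates (chr19:27216489-27254231, plus strand). Of the 3, the Asns stretch was the nearest to its RefSeq start, ending 3 bases before it.

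Library totals ran from 67.2 to 151 M reads in P2ry14-null and from 118 to 185 M reads in WT (M, 1e+06). Levels below are CPM (counts per 1e+06 reads, on library sizes scaled by TMM), and 3 reads equal 0.0445 CPM in the shallowest library and 0.0165 CPM in the deepest. P2ry14 itself measured 23.2 ± 1.02 CPM in P2ry14-null and 211 ± 16.0 CPM in WT (SD, n = 5 each), a log2 fold change of -3.19 with an adjusted p of 3.74e-12 (edgeR's quasi-likelihood test, Benjamini-Hochberg), and the groups did not overlap. The 8 eosinophil markers summed to 8993 to 9636 CPM in P2ry14-null and 9032 to 9511 CPM in WT. P2ry14-null library 2 stood apart in markers of other cells. Its 7 plasma and B cell markers summed to 53.8 CPM (other P2ry14-null libraries 16.6 to 24.7, WT 19.6 to 33.3), its 9 epithelial markers to 81.8 CPM (others 6.74 to 21.3, WT 14.9 to 26.8), its 8 alveolar macrophage markers to 2268 CPM (others 816 to 939, WT 865 to 1088) and its 7 dendritic cell and class II markers to 422 CPM (others 74.5 to 119, WT 105 to 143). Most of the macrophage sum was Chil3 (1520 CPM in that library, others 235 to 363, WT 302 to 524) and Car4 (590 CPM, others 448 to 482, WT 404 to 562). Mrc1, Fabp4 and Cd68 were also highest in that library, while Marco and Krt79 lay within the WT range. The ranges of the mast cell and basophil markers were 9.97 to 13.1 CPM in P2ry14-null and 12.2 to 15.1 CPM in WT, most of it Kit (8.61 to 11.8 CPM in P2ry14-null, 10.6 to 13.1 CPM in WT). All 5 tested markers of that list were below 0, against 48.8% of all tested genes, with a median log2 fold change of -0.59. By edgeR, 1 had an unadjusted p under 0.05, against 2.67% of all tested genes on the lower side, and none was called. That one, the mast cell protease Cpa3, had 0.193 to 0.402 CPM in P2ry14-null and 0.469 to 0.667 CPM in WT. Its groups did not overlap, as in 0.648% of all tested genes. The neutrophil markers summed to 3689 to 5383 CPM in P2ry14-null and 3694 to 4632 CPM in WT. Most of that sum was Retnlg (3408 to 5104 CPM in P2ry14-null, 3414 to 4376 CPM in WT). S100a9 and Cxcr2 came next, at 96.9 to 167 CPM over all libraries. Ly6g, S100a8, Mmp8 and Camp each had at most 4.65 CPM in any library. T cell markers summed to 2.49 to 5.13 CPM in P2ry14-null and 2.44 to 3.0 CPM in WT. Several lists leaned above 0, where 7975 of all 15586 tested genes lay. Above 0 were 5 of 6 tested neutrophil markers, 7 of 9 epithelial markers, 6 of 7 macrophage markers and 6 of 7 dendritic cell and class II markers. By edgeR, 2 neutrophil, 2 epithelial and 1 of 8 eosinophil markers had an unadjusted p under 0.05 on the higher side, against 228 of all genes. None of them was called. None of these markers was at 0 in every library. Their part in the results below was not tested, and results that change without P2ry14-null library 2 are given both ways. In sorted bulk cells, fewer cells of a type and less RNA per cell cannot be told apart.

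None of the 40 genes passed the test (edgeR, adjusted p under 0.05), against 0.0385% of all tested genes (6 genes). The smallest adjusted p among them was 0.952 by edgeR, for Atf5. DESeq2 called 1 of them, Atf5, with an adjusted p of 0.0486, where it called 0.118% of all genes. The fold changes leaned to one side: 31 of 40 (77.5%) were below 0, that is lower in P2ry14-null, against 48.8% of all tested genes, and their median log2 fold change was -0.06, against 0.0025 over all genes. At an unadjusted p under 0.05, 7 of the 40 (17.5%) differed, all 7 lower in P2ry14-null, where 4.13% of all genes did in either direction and 2.67% on the lower side. No member had all 5 P2ry14-null values outside the range of the 5 WT values, as 0.648% of all genes did.

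By role, with no test of the roles against each other, the counts were these. Among 12 ATF4 targets, 11 were below 0, 6 of them at an unadjusted p under 0.05 (Atf5, Trib3, Asns, Ddit3, Psat1 and Aars), and the median log2 fold change was -0.19. Among 13 chaperones and folding enzymes, 11 were also below 0, but 1, Hspa5, had a p under 0.05 and the median was -0.06. The 7 degradation genes had a median of -0.01 with 5 below 0, and the sensors with Xbp1 had a median of 0.05 with 1 of 4 below 0. The difference of the medians, chaperones minus ATF4 targets, was 0.13. The SD between libraries of 1 group was larger for the ATF4 targets, with a median of 0.23 on the log2 scale, against 0.11 for the chaperones and 0.14 over all genes. Without P2ry14-null library 2, 33 of 40 genes were below 0 and 10 had an unadjusted p under 0.05 on the lower side, with Creld2, Pdia6 and Phgdh added, while 50.7% of all genes were below 0 and 2.99% had such a p on that side. Atf5, Asns, Trib3 and Hspa5 kept an unadjusted p under 0.05 whichever single library was left out. Without P2ry14-null library 4 they were the only 4 members on the lower side at that level.

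**Figure D1:**
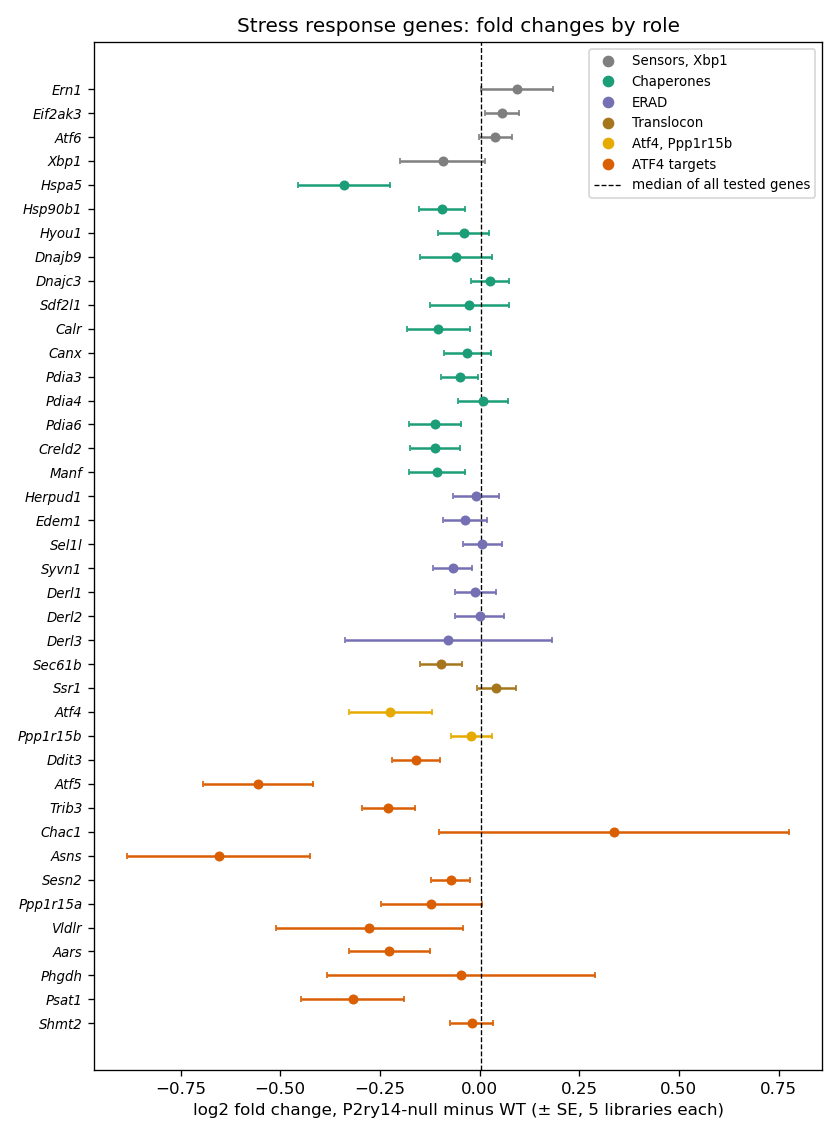
Log2 fold changes, P2ry14-null minus WT (horizontal axis), with their SE for the 40 genes in order of role; colours mark roles and the dashed line the median of all tested genes. Sensors sit at or right of the line except Xbp1, most chaperones and degradation genes lie within 0.12 of it, and Asns (-0.65) and Atf5 (-0.56) reach farthest to the left.

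Among the sensors, the 3 membrane proteins had slightly higher means in P2ry14-null, all within the spread of the libraries. Ern1 measured 28.2, 26.4, 24, 24.7 and 27.7 CPM in P2ry14-null libraries 1 to 5, against 19.2, 23.1, 25.9, 26.3 and 28.1 CPM in WT libraries 1 to 5. Eif2ak3 measured 101, 95.8, 96.7, 104 and 96.4 CPM in the P2ry14-null libraries, against 96.0, 90.7, 95.7, 93.6 and 99.6 CPM in the WT libraries. The groups overlapped for both, and the log2 fold changes were 0.09 ± 0.09 and 0.06 ± 0.04 (SE). That of Ern1 was 0.017 without WT library 1, and that of Eif2ak3 0.037 without P2ry14-null library 4. Eif2ak3 shares 10% of its exon bases with an unnamed gene model (Gm43292) on the other strand. Atf6 measured 49.6, 47.4, 46.0, 49.6 and 48.1 CPM in the P2ry14-null libraries and 47.1, 44.3, 48.6, 46.8 and 47.5 CPM in the WT libraries, again with overlap, at 0.04 ± 0.04 (SE), and 0.021 without WT library 2. Xbp1, the transcription factor made from the IRE1-spliced mRNA, was the one of the 4 below 0, with 349, 403, 362, 301 and 303 CPM in P2ry14-null and 461, 350.5, 317, 377 and 325 CPM in WT. WT library 1 was the highest of the 10 for Xbp1 and the lowest for Ern1. The log2 fold change of Xbp1 was -0.09 ± 0.11 (SE), and without WT library 1 it was 0.0044.

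Per kilobase of exon, Xbp1 was among the most abundant of the 40 genes, at 144 ± 18.0 CPM per kb in P2ry14-null and 153 ± 24.2 CPM per kb in WT, rank 368 of 14091 genes with a length. Atf4 stood highest at 349 ± 21.1 in P2ry14-null and 407 ± 75.2 CPM per kb in WT, rank 115. Hsp90b1 came next with 294 ± 24 in P2ry14-null and 314 ± 7.42 CPM per kb in WT, then Hspa5 with 169 ± 17.6 in P2ry14-null and 214 ± 41.7 CPM per kb in WT. Xbp1 and Ppp1r15a (139 ± 13.7 in P2ry14-null, 151 ± 33.2 CPM per kb in WT) did not differ beyond their spread, nor did Calr and Pdia3, near 100 CPM per kb in both groups. The tested genes had a median of 4.50 CPM per kb in WT, and 33 of the 40 lay above it. At the other end, Derl3, Phgdh, Chac1 and Vldlr averaged under 0.3 CPM per kb in both groups. Between 6 and 100 reads stood behind each of their library values.

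**Figure D2:**
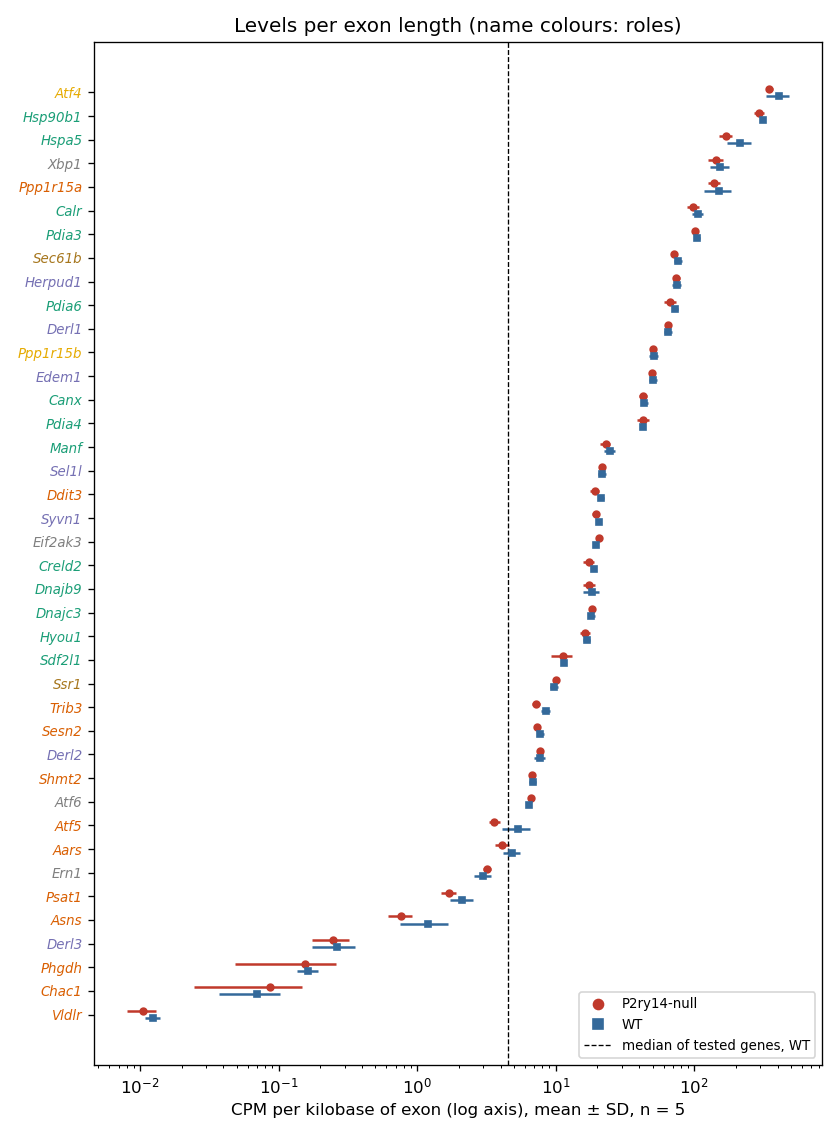
Mean level per exon length (CPM per kilobase, log axis) with its SD for the 40 genes, P2ry14-null (circles) above WT (squares), n = 5 each, ordered by the WT mean; name colours mark roles and the dashed line is the median of tested genes in WT. Levels span from Atf4 at 407 to Vldlr at 0.0124 in WT, and the ATF4 targets are spread over nearly the whole range. All 13 chaperones lie above the dashed line, the lowest being Sdf2l1 at 11.4 in WT.

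Hspa5, which encodes the chief ER chaperone BiP, differed most among the chaperones. Its values were 598, 644, 724, 663 and 549 CPM in P2ry14-null libraries 1 to 5, against 823, 749.7, 685, 1067 and 698 CPM in WT libraries 1 to 5. WT library 4 was far the highest, and P2ry14-null library 3 alone reached into the WT range, above WT libraries 3 and 5. The means were 636 ± 65.9 CPM in P2ry14-null and 804 ± 157 CPM in WT (SD, n = 5 each), and the log2 fold change was -0.34 ± 0.11 (SE, edgeR unadjusted p 0.011, adjusted p 0.999). Without WT library 4 it was -0.21. Hspa5 (gene 14828) lies at chr2:34772090-34776529 in mm10, on the plus strand.

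Hsp90b1, the ER member of the HSP90 family, had 826, 866, 908, 835 and 725 CPM in P2ry14-null and 918, 881, 886, 859.6 and 893 CPM in WT. The groups overlapped, and P2ry14-null library 5 was the lowest of all 10. Its log2 fold change was -0.09 ± 0.06 (SE), and -0.047 without P2ry14-null library 5. It shares 14.7% of its exon bases with a pseudogene (1810014B01Rik) on the other strand. Creld2 and Pdia6 had the next smallest p after Hspa5. Creld2, a secreted ER stress protein, had 24, 26.5, 25.1, 21.8 and 21.3 CPM in P2ry14-null and 26.0, 26.2, 24.4, 27.0 and 24.7 CPM in WT. Pdia6, a protein disulfide isomerase, had 156, 159, 151, 130.0 and 131 CPM in P2ry14-null and 159, 167, 147, 162 and 152 CPM in WT. In both genes P2ry14-null libraries 4 and 5 lay below every WT library and P2ry14-null libraries 2 and 3 overlapped with WT, and both log2 fold changes were -0.11 (SE 0.06 for Creld2, 0.07 for Pdia6). That of Creld2 was -0.073 without P2ry14-null library 5.

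The other 9 chaperones had larger p-values. Manf, a secreted ER stress factor, and the lectin chaperone Calr had log2 fold changes of -0.11 ± 0.07 and -0.10 ± 0.08 (SE), and Calr averaged 215 ± 22.1 CPM in P2ry14-null and 231 ± 21.4 CPM in WT (SD, n = 5 each). Manf was at -0.053 without WT library 1, and Calr at -0.041 without WT library 4. The BiP cochaperone Dnajb9 was at -0.06 and the thiol oxidoreductase Pdia3 at -0.05. Hyou1, an exchange factor for BiP, was at -0.04, and the lectin chaperone Canx and Sdf2l1 were at -0.03. Dnajc3, an ER cochaperone, and Pdia4, another disulfide isomerase, were the pair above 0, at 0.03 and 0.0089. P2ry14-null library 2, the one with more reads of other cells' markers, was the highest of its group for 8 of the 13 chaperones, and library 5 the lowest for 8. Sdf2l1, for example, measured 15.7 CPM in P2ry14-null library 2 and 9.94 to 12.9 CPM in the other P2ry14-null libraries, against 11.8 to 13.3 CPM in WT. The median of the 13 chaperones was -0.11 without P2ry14-null library 2 and -0.04 without library 5.

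Genes of ER-associated degradation, which carries misfolded proteins to the proteasome, were nearly level between the groups. Syvn1, the ubiquitin ligase HRD1, had the smallest p of the 7, with 68.2, 71.9, 78.1, 71.8 and 67.4 CPM in P2ry14-null and 71.5, 78.3, 72.8, 75.2 and 76.6 CPM in WT. Edem1, which picks out glycoproteins for degradation, had 273, 285, 301, 305 and 274 CPM in P2ry14-null and 271, 292, 324, 289 and 299 CPM in WT. The groups overlapped in both, with log2 fold changes of -0.07 ± 0.05 and -0.04 ± 0.06 (SE), the one of Edem1 at -0.0012 without WT library 3. Herpud1, Sel1l, Derl1 and Derl2, parts or partners of the HRD1 complex, lay between -0.01 and 0.01. Derl3 was read at 16 to 75 counts in P2ry14-null and 27 to 81 counts in WT, and its log2 fold change of -0.08 ± 0.26 (SE) leaves a wide range. Of the translocon genes, Sec61b, a subunit of the channel, measured 38.9, 40.4, 43.1, 39.2 and 39.1 CPM in P2ry14-null and 46.3, 45.1, 39.2, 43.3 and 40.9 CPM in WT. Its log2 fold change was -0.10 ± 0.05 (SE), with overlapping groups. Ssr1, of the translocon-associated TRAP complex, had 104, 102, 102, 102 and 102 CPM in P2ry14-null and 102, 97.7, 110.4, 96.1 and 92.0 CPM in WT, so that P2ry14-null lay within the WT range.

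Atf4 (gene 11911) measured 622, 549, 629, 629 and 577 CPM in P2ry14-null, against 749, 698, 560.0, 893 and 611 CPM in WT. WT libraries 1, 2 and 4 stood above every P2ry14-null library, and WT libraries 3 and 5 stood among them. The log2 fold change was -0.22 ± 0.10 (SE, edgeR unadjusted p 0.053), and -0.12 without WT library 4. Ppp1r15a, the inducible phosphatase subunit GADD34 that reverses eIF2α phosphorylation, had 421, 349.5, 438, 448 and 388 CPM in P2ry14-null and 494, 430.4, 349, 585 and 364 CPM in WT. Its log2 fold change was -0.12 ± 0.13 (SE). Ppp1r15b, the constitutive subunit, had 271, 285, 283, 285 and 284 CPM in P2ry14-null, within the WT range of 294, 274, 313, 259 and 288 CPM. It shares 11.4% of its exon bases with the gene model Gm26616 on the other strand.

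Atf5, a transcription factor that is itself translated under stress, had the smallest p of the 40 genes. It measured 7.57, 7.44, 7.95, 6.46 and 6.56 CPM in P2ry14-null libraries 1 to 5, against 11.2, 9.40, 12.6, 7.09 and 12.6 CPM in WT libraries 1 to 5. WT library 4 alone lay within the P2ry14-null range, and the other 4 WT libraries lay above it. Means were 7.20 ± 0.653 CPM in P2ry14-null and 10.6 ± 2.36 CPM in WT (SD, n = 5 each), a log2 fold change of -0.56 ± 0.14 (SE, edgeR unadjusted p 0.0015). The adjusted p was 0.952 by edgeR and 0.0486 by DESeq2, and 0.051 by edgeR without WT library 4. Atf5 (gene 107503, chr7:44812256-44816658, minus strand) shares 82 of its exon bases (4.11%) with Nup62 and Il4i1 on the other strand. The strand setting of the counting is not given in the sources used here, so reads from such stretches cannot be told apart, here and in the other genes with an overlap on the other strand.

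Asns, asparagine synthetase, had the largest difference of the 40 in size. Its values were 1.78, 2.16, 1.6, 1.44 and 1.32 CPM in P2ry14-null and 2.11, 2.03, 3.24, 1.64 and 4.03 CPM in WT. WT libraries 3 and 5 stood well above the rest, and WT libraries 1, 2 and 4 lay inside the P2ry14-null range. The log2 fold change was -0.65 ± 0.23 (SE, edgeR unadjusted p 0.014) and -0.45 without WT library 5. Psat1, an enzyme of serine synthesis, had 5.93, 5.42, 4.67, 4.57 and 4.50 CPM in P2ry14-null and 6.01, 4.83, 7.06, 5.46 and 7.83 CPM in WT. Aars, the alanyl-tRNA synthetase, had 25.3, 25.2, 24.9, 18.9 and 24.3 CPM in P2ry14-null and 28.1, 23.4, 30.9, 24.2 and 32.1 CPM in WT. In both, WT libraries 3 and 5 were again the highest, and the log2 fold changes were -0.32 ± 0.13 and -0.23 ± 0.10 (SE). That of Psat1 was -0.22 without WT library 5, and that of Aars -0.16 without P2ry14-null library 4. Aars shares 1326 exon bases (23.1%) with Exosc6 on the same strand.

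Trib3 and Ddit3 varied less. Trib3, a pseudokinase that restrains ATF4, had 15.1, 13.7, 15.8, 15.2 and 13.5 CPM in P2ry14-null and 18.5, 16.5, 17.8, 15.2 and 17.8 CPM in WT. Ddit3, which encodes the transcription factor CHOP, had 16.6, 17.0, 19.2, 16.0 and 16.4 CPM in P2ry14-null and 20.1, 18.9, 18.3, 17.9 and 20.0 CPM in WT. One library crossed over in each, WT library 4 for Trib3 and P2ry14-null library 3 for Ddit3. The log2 fold changes were -0.23 ± 0.07 for Trib3 and -0.16 ± 0.06 for Ddit3 (SE), with unadjusted p of 0.0046 and 0.021 by edgeR. Ddit3 shares 68 exon bases (7.64%) with Mars on the other strand.

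The rest of the ATF4 targets did not differ at an unadjusted p under 0.05. Sesn2, which restrains mTORC1, was at -0.07 ± 0.05 (SE), or -0.042 without WT library 5, and Shmt2, of mitochondrial one-carbon metabolism, at -0.02 ± 0.05. Chac1, which breaks down glutathione, measured 0.0889, 0.318, 0.0679, 0.109 and 0.122 CPM in P2ry14-null and 0.0534, 0.0921, 0.171, 0.0831 and 0.169 CPM in WT, or 6 to 49 reads. It was the only ATF4 target above 0, at 0.34 ± 0.44 (SE), and without P2ry14-null library 2 it was -0.24. Phgdh, the first enzyme of serine synthesis, behaved alike in that library, with 0.193, 0.649, 0.231, 0.210 and 0.179 CPM in P2ry14-null and 0.252, 0.318, 0.309, 0.275 and 0.392 CPM in WT. Its log2 fold change was -0.05 ± 0.34 (SE) with all libraries and -0.59 without P2ry14-null library 2. Vldlr, a lipoprotein receptor, was read at 8 to 15 counts in P2ry14-null and 12 to 22 counts in WT, with a log2 fold change of -0.28 ± 0.24 (SE).

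**Figure D3:**
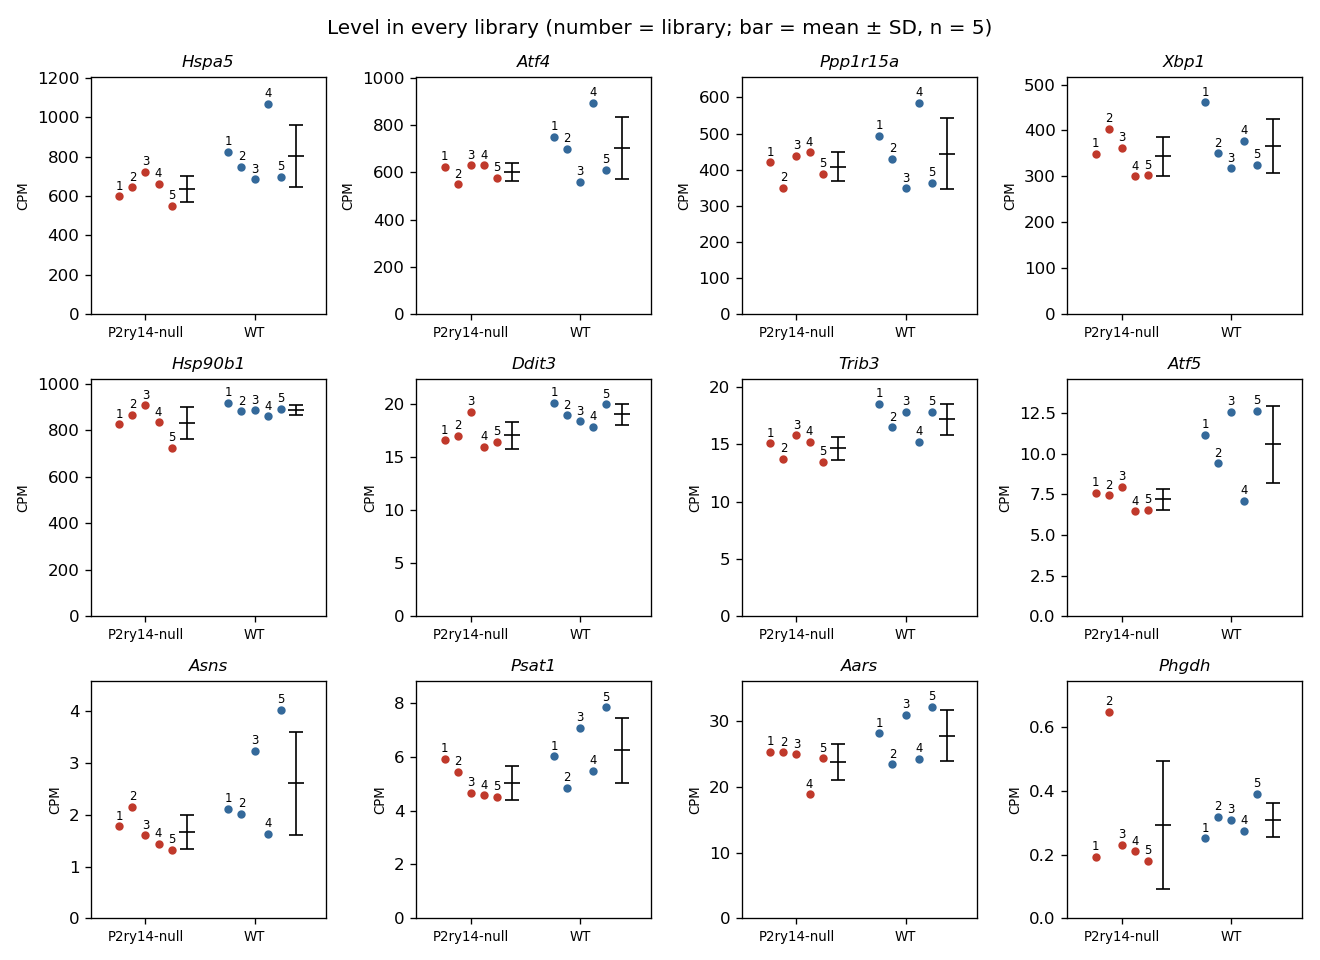
CPM (vertical axes, from 0) of 12 genes in each of the 5 P2ry14-null (red) and 5 WT (blue) libraries, numbered, with the mean and SD as a bar beside each group. WT library 4 is the highest for Hspa5, Atf4 and Ppp1r15a but the lowest WT library for Atf5, Asns and Trib3, and P2ry14-null library 2 is the highest for Phgdh.

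The WT libraries did not order the genes alike. WT library 4 was the highest of the 10 for Hspa5, Atf4, Ppp1r15a and Calr, and the lowest of the WT libraries for Atf5, Asns and Trib3. WT libraries 3 and 5 were the highest for Atf5, Asns, Psat1 and Aars, and the 2 lowest WT libraries for Hspa5, Atf4 and Ppp1r15a. WT library 5 was the highest WT library for 6 of the 12 ATF4 targets, and WT library 4 the lowest for 5. Of the 39 relations between Hspa5 and another member across the 10 libraries, with group means removed, 0 passed an adjusted p of 0.05 by an exact permutation test within groups. The closest were Atf4 (Pearson's r 0.85, two-sided exact p 0.0061, adjusted p 0.173; Spearman's rho 0.85, exact p 0.0050, adjusted p 0.0975) and Ppp1r15a (r 0.83, exact p 0.0089, adjusted p 0.173; rho 0.85, exact p 0.0050, adjusted p 0.0975). Leaving out WT library 4 and P2ry14-null library 3, the farthest from the median of Hspa5, r was 0.66 for Atf4 and 0.65 for Ppp1r15a. Without P2ry14-null library 2, both passed, each with an adjusted exact permutation p of 0.0203. The next chaperone was Calr (r 0.71, exact p 0.033, adjusted p 0.425; rho 0.56, exact p 0.0998, adjusted p 0.555), and its r was 0.37 without the 2 farthest libraries. Atf5 had the lowest r, -0.64 (exact p 0.117; rho -0.44, exact p 0.26), and -0.29 without those libraries. As a description, the median r between pairs of chaperones was 0.44 (78 pairs), between pairs of ATF4 targets 0.13 (66 pairs) and between a chaperone and an ATF4 target 0.11 (156 pairs), over values that share library and depth.

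**Figure D4:**
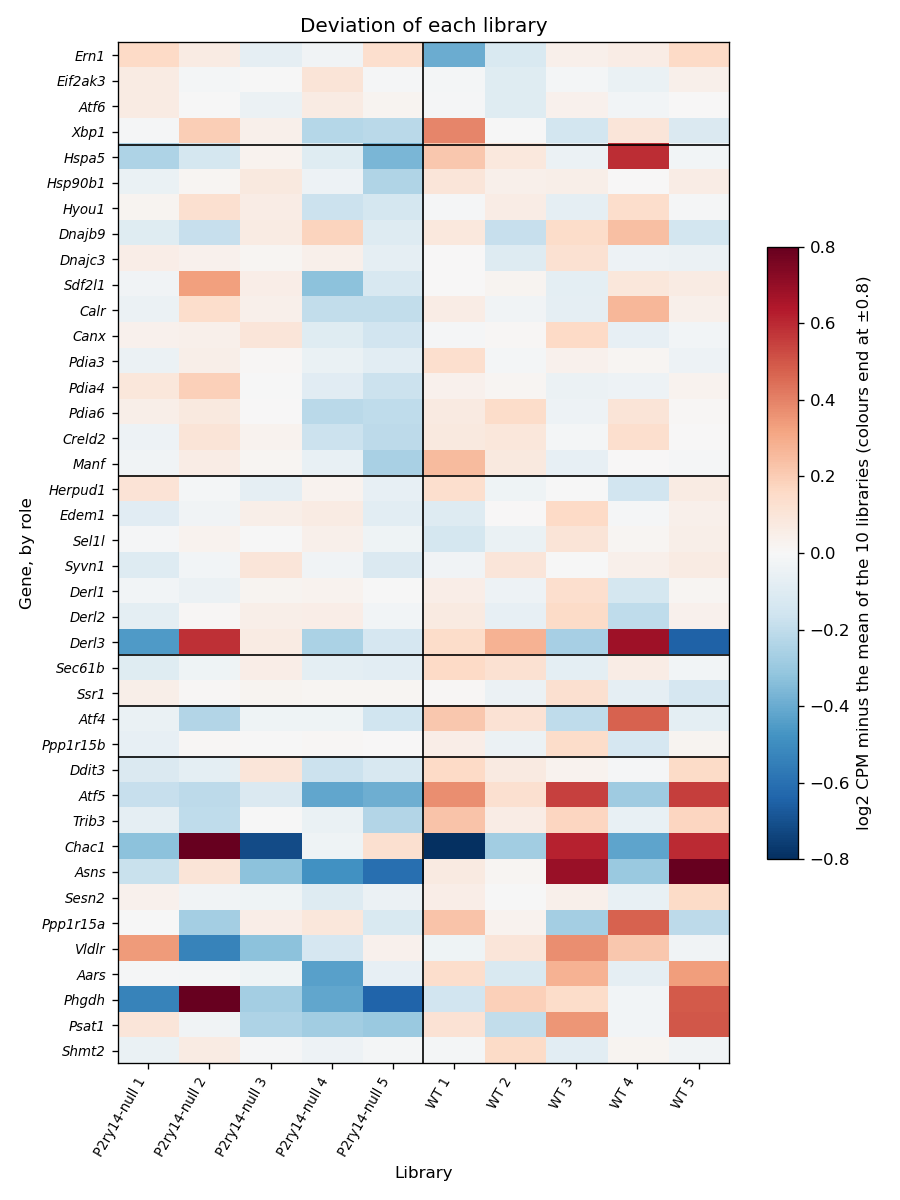
Deviation of log2 CPM from each gene's mean over the 10 libraries (colour, ends at ±0.8), with genes in rows by role and libraries in columns, P2ry14-null left of the vertical line and WT right of it. WT 4 is red for Hspa5, Atf4 and Ppp1r15a, where WT 3 and WT 5 are light blue for Ppp1r15a, fainter for Atf4 and near white for Hspa5. For Atf5 and Asns, WT 4 is blue and WT 3 and WT 5 are red.

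As whole lists, the mean log2 CPM of the 13 chaperones was 6.81 ± 0.10 in P2ry14-null (6.67 to 6.91) and 6.89 ± 0.051 in WT (6.84 to 6.96) (SD, n = 5 each). The mean of the 12 ATF4 targets was 2.30 ± 0.13 in P2ry14-null (2.20 to 2.53) and 2.51 ± 0.15 in WT (2.36 to 2.71). Both ranges overlapped, in the ATF4 targets through P2ry14-null library 2 alone, at 2.53. In that library Chac1 and Phgdh, genes with few reads, stood 1.28 and 1.29 above their P2ry14-null means in log2 CPM. The next ATF4 target was Asns at 0.398, and the lowest was Vldlr at -0.345. The list was not averaged without Chac1 and Phgdh. The chaperone mean minus the ATF4 target mean was 4.50 ± 0.090 in P2ry14-null and 4.38 ± 0.19 in WT, and the lowest values were those of WT libraries 3 and 5, at 4.22 and 4.14. No p is given for these means, since the genes were chosen with results of these data known. All 40 genes together made up 5643 ± 261 CPM in P2ry14-null and 6102 ± 379 CPM in WT, or 0.564% and 0.610% of the TMM-scaled library sizes.

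**Figure D5:**
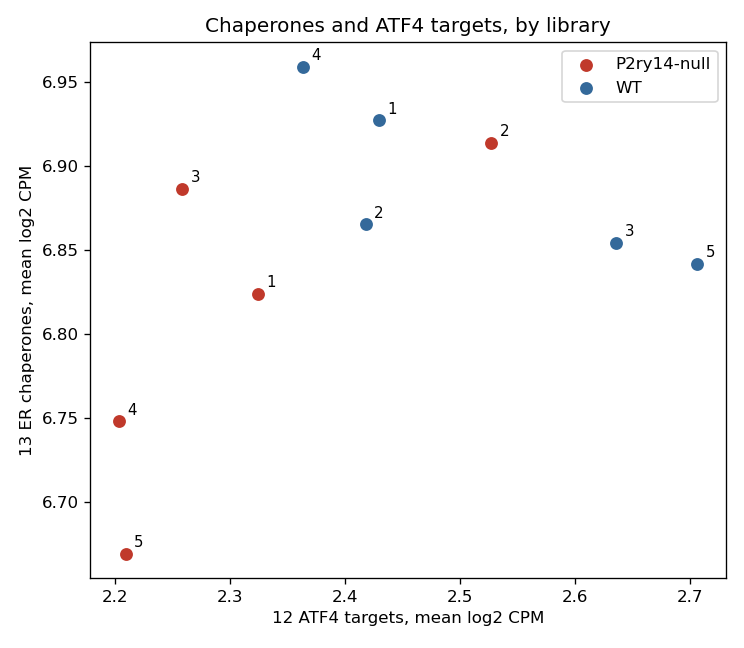
Each library's mean log2 CPM of the 12 ATF4 targets (horizontal axis) against that of the 13 chaperones (vertical axis), with P2ry14-null in red, WT in blue and library numbers beside the points; neither axis starts at 0. P2ry14-null libraries 1, 3, 4 and 5 lie left of every WT library, P2ry14-null library 2 lies among them, and P2ry14-null libraries 4 and 5 have the lowest chaperone means.

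Among other genes of the same pathways, the ATF4 targets again had the lowest median and the sensors and regulators the highest. The folding genes lay near the degradation genes, unlike the chaperone members. None of the other genes was called by edgeR, as 0.0385% of all tested genes were. Over all tested genes, 48.8% were below 0 and 2.67% had an unadjusted p under 0.05 on the lower side by edgeR. Among 19 tested further ATF4 targets, 17 were below 0, 5 with an unadjusted p under 0.05, and the median log2 fold change was -0.10. Ddit4, which restrains mTORC1, averaged 91.3 ± 8.62 CPM in P2ry14-null and 110.1 ± 8.43 CPM in WT (SD, n = 5 each), at -0.27 ± 0.07 (SE, edgeR unadjusted p 0.0021). Mthfd2, of mitochondrial one-carbon metabolism, averaged 15.3 ± 1.61 CPM in P2ry14-null and 20.2 ± 4.92 CPM in WT, at -0.41 ± 0.14 (SE). The 17 cytosolic tRNA synthetases had a median of -0.03 with 13 below 0, and Cars and Wars, with the smallest p, were at -0.18 ± 0.07 and -0.14 ± 0.08 (SE). The 19 further ER folding genes had a median of -0.01 with 14 below 0, and 1 of them, the disulfide oxidase Ero1l, had an unadjusted p under 0.05 (83.4 ± 2.99 CPM in P2ry14-null, 90.3 ± 6.50 CPM in WT). Sdf2 was the next in that list, at -0.12 ± 0.06 (SE). The 15 further degradation genes had a median of -0.01 with 10 below 0, led by Selenos at -0.12 and Ube2j2 at -0.09. The 13 further genes of the translocon and signal peptidase had a median of -0.04 with 10 below 0, led by Sec11a at -0.11 and Ssr4 at -0.07. The 18 further sensors and regulators had a median of 0.0054 with 7 below 0. Of those, Rtcb, the ligase that completes Xbp1 splicing, was at -0.09 ± 0.05 and Tmbim6 at -0.08 ± 0.05 (SE).

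Cytosolic heat shock genes, chosen after earlier results of these data were known, leaned the same way. All 5 (Hspa1a, Hspa1b, Dnajb1, Hsp90aa1 and Hspa8) were below 0, against 48.8% of all tested genes, and none was called by edgeR. All 5 had an unadjusted p under 0.05 by edgeR, against 2.67% of all tested genes on the lower side. Since the genes were chosen with results known, the shares of all genes are no fair yardstick for these counts. Dnajb1 was called by DESeq2 with an adjusted p of 0.0041, where DESeq2 called 0.118% of all genes. Dnajb1, which activates HSP70 proteins, averaged 45.1 ± 6.19 CPM in P2ry14-null and 62.3 ± 6.99 CPM in WT (SD, n = 5 each). The mean log2 CPM of the 5 genes in P2ry14-null libraries 1 to 5 was 3.92, 4.24, 5.06, 4.68 and 3.73, against 5.45, 5.02, 5.08, 5.45 and 5.01 in WT libraries 1 to 5. The highest P2ry14-null library was library 3 and the lowest library 5. Library 3 was the highest of its group for 8 of the 40 members, among them Hspa5, Hsp90b1, Atf5, Trib3 and Ddit3. It was the highest for 3 of 13 chaperones and 3 of 12 ATF4 targets, and P2ry14-null library 2 for 8 and 4. The part of the heat shock difference in the results of the ER chaperones was not tested.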

How the data were processed

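The table deposited by the authors holds raw read counts per gene of the 10 libraries. STAR 2.5, featureCounts 1.5.0-p1 of Subread, and DESeq2 are named with mouse build mm10, per the submitters' processing notes. Which annotation and strand setting were used, and how multi-mapping reads were treated, is not given in the sources used here. Groups and library numbers came from the sample titles. No pair of libraries within a group agreed within sampling noise (chi-square 24.2 or more per gene).

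The deposited counts were fitted in edgeR 4.0.16 (R 4.3.3) with genotype as the only term, TMM factors and edgeR's default filter on low counts. P-values of the quasi-likelihood test were adjusted by Benjamini-Hochberg over all 15586 genes kept (threshold 0.05). The SE of a log2 fold change (P2ry14-null minus WT) was taken from the F statistic, and its median was 0.0894. The common coefficient of biological variation was 12.3%. Limits from read numbers cover counting error only. The script was tested on simulated data. Exon lengths and overlaps came from GENCODE vM21 on GRCm38, and promoters from RefSeq (GRCm38.p6). Scores and relations used log2 CPM with a prior count of 2.

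Members and lists were chosen with earlier results of these data known. Named genes were all members, with every library's value for central genes and for the 2 with the smallest p per role, and up to 2 with the smallest p from each other list. Values by library or range of Pdia6, Psat1, Aars, Asns, Ppp1r15a, Phgdh, Calr and Sdf2l1 were added after values were seen. Alternatives were DESeq2 1.42.0, its size factors, no low-count filter, a replicate block, each library left out, and a whole 300-base promoter window. A matching promoter stretch is not reported here.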

Additional observations from a re-analysis of the deposited data

Results flagged for a closer look

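Of 80 groups of 5 values (40 genes in P2ry14-null and in WT), 5 held a library whose gap to the nearest of the others took up more of the group's range than Dixon's 95% limit of 0.71 allows. Chance flags about 1 in 20 groups. All 5 were P2ry14-null libraries.

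Phgdh measured 0.649 CPM in P2ry14-null library 2, against 0.179 to 0.231 CPM in the other P2ry14-null libraries. Chac1 measured 0.318 CPM in the same library, against 0.0679 to 0.122 CPM in the others. That library also had the highest summed markers of epithelium (81.8 CPM, against 6.74 to 21.3 CPM in the other P2ry14-null libraries). Its summed markers of alveolar macrophages, most of them Chil3 and Car4, were the highest too (2268 CPM, against 816 to 939 CPM). The part of those cells in the Phgdh and Chac1 values was not tested.

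Aars measured 18.9 CPM in P2ry14-null library 4, against 24.3 to 25.3 CPM in the other P2ry14-null libraries. Ppp1r15b measured 271 CPM in P2ry14-null library 1, against 283 to 285 CPM in the others. Ssr1 measured 104 CPM in P2ry14-null library 1, against 102 CPM in the others, a small gap in a narrow group. P2ry14-null library 1 was the shallowest, with 67.2 M reads.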

How the results depend on the processing

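DESeq2 called 19 genes, 18 on the genes kept by the low-count filter (an alternative added after seeing the data), and 45 with the replicate block. Atf5 was the 1 member called in each of these 3 fits. edgeR called 6 genes in all and 0 members with DESeq2's size factors, without the low-count filter and with the replicate block, where the medians were -0.056 for the chaperones and -0.22 for the ATF4 targets. Library numbers showed no sign of pairing the samples (correlations of same-numbered libraries -0.093 to 0.094, 1 of 5 best matched with its own number). Weak correlations cannot exclude a pairing, and the labels do not state one. Without 1 library, edgeR called 3 to 5 genes and 0 members, and 0 to 2 relations to Hspa5 passed.

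Counts by sign and unadjusted p were repeated as alternatives added after seeing the data. Without 1 library, 27 to 33 members were below 0 and 4 to 10 had an unadjusted p under 0.05 on the lower side (1 to 3 chaperones, 3 to 7 ATF4 targets). Over all genes in the same fits, 45% to 50.7% were below 0 and 1.81% to 4.27% had such a p on that side. The chaperone median ran from -0.11 to -0.039, with -0.092 without WT library 5. The ATF4 target median ran from -0.22 to -0.16. The difference ran from 0.086 without WT library 5 to 0.167, with 0.088 without P2ry14-null library 4, and the median of all members from -0.088 to -0.037, the last without P2ry14-null library 5. Without the low-count filter, Pdia4 was at -0.0019, Sel1l at -0.0037 and Derl2 at -0.0099, below 0 where the report has them above. Of the 40 genes, 25 kept their sign throughout. Of these, Hyou1 ran to -0.0028 without WT library 4, Pdia3 to -0.022 without WT library 1 and Dnajc3 to 0.0048 without WT library 2. For the other 15, none called by edgeR, leaving out 1 library gave Xbp1 -0.16 to 0.0044, Dnajb9 -0.12 to 0.00057, Sdf2l1 -0.12 to 0.045, Canx -0.052 to 0.0075, Pdia4 -0.039 to 0.052, Herpud1 -0.040 to 0.025, Sel1l -0.025 to 0.035, Derl1 -0.039 to 0.023, Derl2 -0.041 to 0.040, Derl3 -0.27 to 0.12, Ppp1r15b -0.048 to 0.015, Chac1 -0.24 to 0.55, Ppp1r15a -0.20 to 0.0029, Phgdh -0.59 to 0.10 and Shmt2 -0.043 to 0.018. The cause was not tested. The whole 300-base window gave the same 7 chaperone promoters with an ERSE. Between 6 and 100 reads a library stand behind Derl3, Phgdh, Chac1 and Vldlr.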
